A study of Mus musculus with 21 samples.

Results

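The genes described here are 10 that encode small calcium-binding S100 proteins (S100a4, S100a6, S100a8, S100a9, S100a10 and S100a11), annexins (Anxa1 and Anxa2), the giant scaffold protein Ahnak and the actin filament capping protein Capg, out of 34236 gene symbols in the count table. They were chosen as a family of partners after it had been seen that Ahnak, S100a10 and Capg are low in kidney-resident macrophages (KRM) of Sham kidneys and higher in KRM of stenotic kidneys. The KRM values of all 10 genes are therefore given as a description, with no test. The members were tested only between libraries of the other macrophage populations. All 10 genes were counted in every library. RNA came from macrophages of male C57BL/6J mice, aged 24 weeks by the sample labels, that were sorted for F4/80 and CD64 from enzyme-digested kidneys. By the study's methods the sort kept live CD45-positive cells, a gate that leaves out epithelium, endothelium and fibroblasts, and a dump channel took out T, B and NK cells, erythrocytes and granulocytes. CD11chiMϕ were CD11b-high and CD11c-high, CD11cloMϕ were CD11b-high with little or no CD11c, and KRM were intermediate for both. Kidneys were taken after renal artery stenosis (RAS), made by a cuff on the right renal artery, or after a Sham operation in which the artery was exposed without a cuff. There were 3 Sham and 4 RAS libraries of CD11chiMϕ, 3 Sham and 4 RAS libraries of CD11cloMϕ, and 4 Sham and 3 RAS libraries of KRM, 21 in all. The labels give no animal for a library, so p-values measure the spread between these libraries, which may be partly technical.

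S100 proteins are calcium sensors that bind partner proteins as dimers. S100a8 and S100a9 form calprotectin, a secreted alarmin that neutrophils and monocytes hold in abundance and that signals through Tlr4 and Ager. S100a10 and S100a11 bind annexins instead: S100a10 pairs with Anxa2 at the inner face of the plasma membrane, where the complex also holds Ahnak, and S100a11 binds Anxa1. Anxa1 and Anxa2 attach to phospholipid membranes in the presence of calcium and take part in membrane repair. Anxa1, once released, also acts through formyl peptide receptors to limit neutrophil recruitment. S100a4 and S100a6 bind cytoskeletal proteins and mark motile cells, and Capg caps the barbed ends of actin filaments in macrophages.

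Library totals ran from 6891137 to 18592376 counts, and levels are given as CPM, counts scaled to a common library size. The 10 macrophage markers examined, among them Adgre1 (F4/80), Fcgr1 (CD64) and Csf1r, were counted in all 6 groups, with sums from 2821 to 13210 CPM. The lowest of these sums belonged to CD11chiMϕ Sham replicate 3. In that library 12 tubular epithelial genes summed to 7442 CPM, against 99.9 and 113.9 CPM in the other CD11chiMϕ Sham libraries. In CD11cloMϕ Sham replicate 3 the same sum was 2338 CPM, against 53.2 and 70.2 CPM in its group. The 3 KRM RAS libraries also differed from each other in genes of other cell types. In the log2 table that was deposited beside the counts, the column of KRM RAS replicate 1 correlated with its counts by only 0.106 over 11965 genes, and its values were nearest to the counts of CD11chiMϕ RAS replicate 2. Which of the 2 tables holds the right values for that library is not known. The counts were used, so every KRM RAS value below depends on them. CD11chiMϕ RAS replicates 3 and 4 were much closer to each other than other libraries of their group (chi-square per gene 5.13, against 94.3 to 127.9 for the other pairs), although they differed by more than counting error. They were kept as 2 libraries, and member calls that use them are also given with their counts summed as 1. In KRM RAS, replicates 2 and 3 were closer to each other (chi-square per gene 10.1) than to replicate 1 (135.6 and 106.7), and no fit with those summed was run. Comparisons of the members in CD11chiMϕ and CD11cloMϕ that involve the Sham libraries numbered 3 are given with and without them. In sorted bulk samples, fewer cells of a type and less RNA per cell cannot be told apart.

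The S100 members lie on chromosome 3 in 2 stretches (GENCODE annotation, GRCm38): S100a4 at chr3:90603771-90606045, S100a6 at chr3:90612882-90624181, S100a8 at chr3:90668978-90670035 and S100a9 at chr3:90692632-90695721, then S100a11 at chr3:93520488-93526287 and S100a10 at chr3:93555080-93564643. Of these only S100a9 is on the minus strand. Ahnak (chr19:8989284-9076914, plus strand) and Anxa1 (chr19:20373428-20390944, minus strand) share chromosome 19. Anxa2 is at chr9:69453620-69491795 and Capg at chr6:72544391-72562983, both on the plus strand. Reads on the 302 exonic bases that S100a4 shares with Gm42674 on the same strand cannot be assigned to either gene, nor, since no strand is stated for the counting, those on the 98 that Anxa2 shares with the antisense gene Gm16144, and S100a11 has an annotated processed pseudogene, S100a11-ps, with which reads could be split. RefSeq promoters (GRCm38.p6) were found for 9 of the 10 members, all but S100a10. In the 250 bases before the start, the AP-1 letters TGANTCA, which read alike on both strands, occurred in 2 of the 9 (S100a11 at 136 and 38 bases and Anxa2 at 95 bases before the start) and in 6.75% of 32851 promoter windows of that length. The GC box GGGCGG, on either strand, occurred in S100a9, S100a11, Ahnak and Anxa2, 4 of 9 against 32.7% of all promoters. The letters GGAAGT, a core that PU.1 and other ETS factors bind, occurred in S100a8, S100a9, S100a11, Anxa1 and Capg, 5 of 9 against 19.7%, and the CCAAT box in S100a6 alone, 1 of 9 against 33.8%. Overlaps between these motifs were not removed. The windows of the 2 members with AP-1 letters are shown with those of Ahnak and Capg, which had none and were among the genes the choice was made on, and capitals mark TGANTCA. Windows end at the start that RefSeq gives, so those of Capg and Anxa1 lie wholly inside the GENCODE gene and those of S100a6, S100a8, S100a11 and Anxa2 end inside it.
S100a11, chr3:93520246-93520495, plus strand: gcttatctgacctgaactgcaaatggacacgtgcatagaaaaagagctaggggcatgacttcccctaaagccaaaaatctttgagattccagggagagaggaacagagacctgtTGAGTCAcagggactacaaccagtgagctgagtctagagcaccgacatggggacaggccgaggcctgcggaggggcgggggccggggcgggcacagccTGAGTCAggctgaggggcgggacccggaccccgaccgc
Anxa2, chr9:69453433-69453682, plus strand: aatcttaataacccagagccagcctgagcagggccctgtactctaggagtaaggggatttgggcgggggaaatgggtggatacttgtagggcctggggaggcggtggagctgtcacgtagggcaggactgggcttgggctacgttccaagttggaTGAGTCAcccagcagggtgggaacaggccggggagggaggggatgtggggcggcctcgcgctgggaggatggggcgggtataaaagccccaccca
Ahnak, chr19:8989034-8989283, plus strand: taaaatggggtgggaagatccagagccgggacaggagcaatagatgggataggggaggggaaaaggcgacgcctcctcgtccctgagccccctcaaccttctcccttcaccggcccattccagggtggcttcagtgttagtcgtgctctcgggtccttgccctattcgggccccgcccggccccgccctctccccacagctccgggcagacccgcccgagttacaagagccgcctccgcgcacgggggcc
Capg, chr6:72549397-72549646, plus strand: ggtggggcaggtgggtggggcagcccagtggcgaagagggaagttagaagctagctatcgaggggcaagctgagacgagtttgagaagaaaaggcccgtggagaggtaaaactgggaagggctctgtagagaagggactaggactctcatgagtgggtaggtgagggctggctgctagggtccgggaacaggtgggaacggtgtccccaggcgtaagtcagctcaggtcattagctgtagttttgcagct

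Per kilobase of exon, the scale on which genes can be compared, S100a11 had the highest mean level of the members in 5 of the 6 groups, from 85.7 ± 19.7 CPM per kb (SD, n = 4) in KRM Sham to 1309 ± 529 (n = 3) in CD11cloMϕ Sham. The exception was CD11cloMϕ RAS, where S100a9 reached 1191 ± 702 CPM per kb (n = 4) against 977 ± 358 for S100a11, a difference within their spread. Ahnak, whose exons span 19.9 kb, was among the 3 lowest per kb in every group, at 1.64 ± 0.217 CPM per kb in KRM Sham and 81.2 ± 13.8 in CD11cloMϕ Sham. Every member but S100a9 had the same lower end of its order of group means, with KRM Sham lowest, KRM RAS next and CD11chiMϕ Sham next above. For S100a8 the counts in KRM were too few to read an order between the KRM groups.

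**Figure D1:**
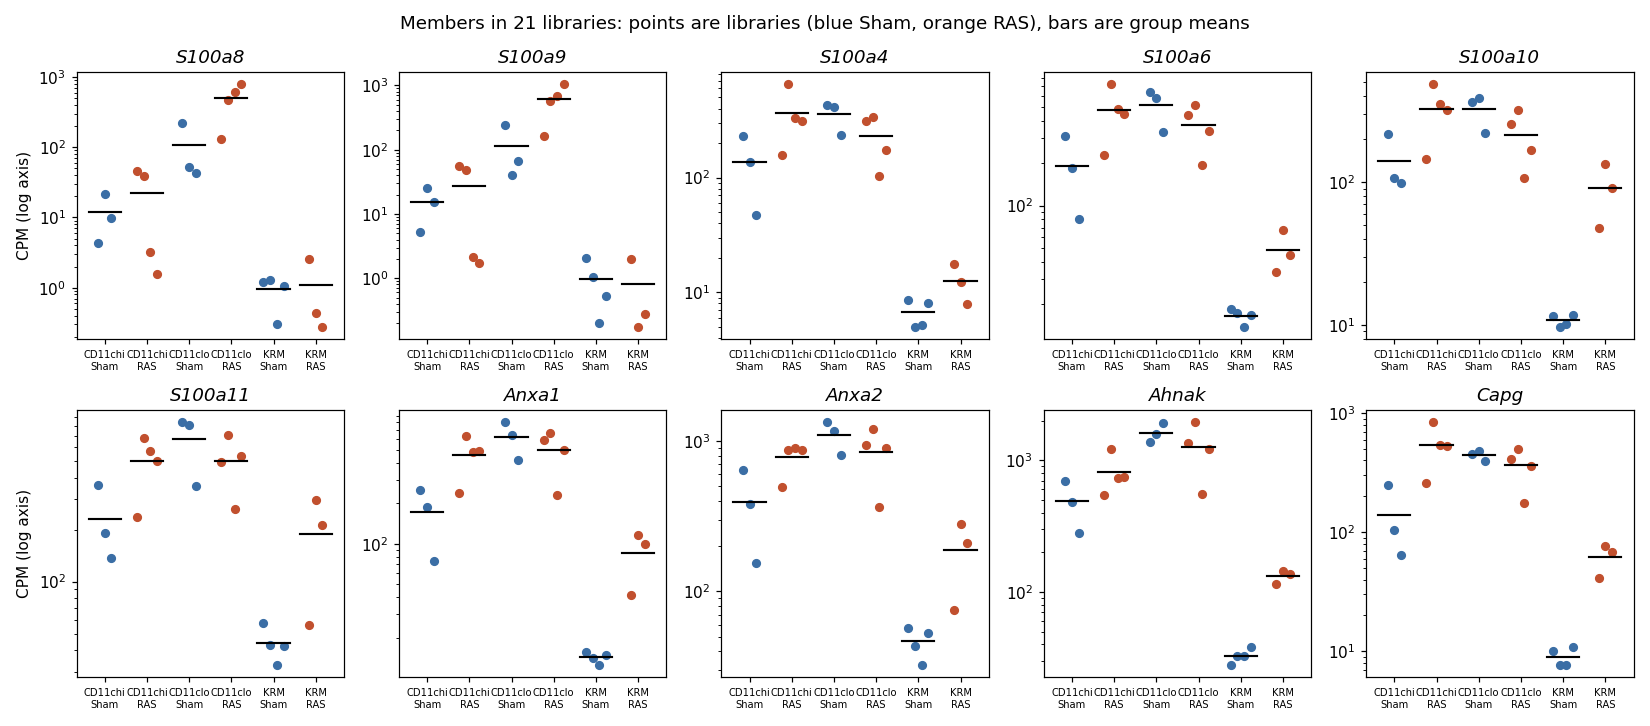
Level of each of the 10 genes in every library, in CPM on a log10 axis, by population and operation (points are libraries). The KRM Sham means are lowest for 9 of the 10 genes, with Ahnak at 27.7 to 38.3 CPM there and at 1366 to 1912 CPM in CD11cloMϕ Sham. S100a8 and S100a9 depart from the rest, with their highest values in CD11cloMϕ RAS.

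Ahnak, the scaffold that links the S100a10 and Anxa2 complex to actin, had 27.7, 32.6, 32.6 and 38.3 CPM in the 4 KRM Sham libraries and 115, 145 and 137 CPM in the 3 KRM RAS libraries. Its levels in CD11cloMϕ were 1366, 1579 and 1912 CPM in Sham and 1359, 1945, 553 and 1226 CPM in RAS. CD11chiMϕ had 698, 481 and 281 CPM in Sham and 543, 1228, 735 and 752 CPM in RAS. The KRM RAS libraries thus lay above all KRM Sham libraries and below every library of the other populations. The ratio of mean levels was 4.04 for KRM RAS over KRM Sham, while CD11cloMϕ Sham stood at 49.4 times and CD11chiMϕ Sham at 14.8 times the KRM Sham mean. Between the CD11cloMϕ and CD11chiMϕ RAS libraries the ranges overlapped.

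S100a10, the S100 partner of Anxa2, had 11.6, 9.63, 10.1 and 11.7 CPM in KRM Sham and 47.5, 133 and 91.4 CPM in KRM RAS, a ratio of means of 8.44. In CD11chiMϕ it was counted at 217, 107 and 98.8 CPM in Sham and 145, 486, 350.4 and 321 CPM in RAS, and in CD11cloMϕ at 365, 390.1 and 221.6 CPM in Sham and 253, 322, 106 and 168 CPM in RAS. KRM RAS replicate 2, the highest of its group, reached into the range of both other populations. Anxa2 itself had 57.0, 43.2, 32.2 and 53.0 CPM in KRM Sham against 75.6, 281 and 209 CPM in KRM RAS, so the lowest RAS library was 1.63 times the Sham mean. Elsewhere Anxa2 ran from 154.1 to 901 CPM in CD11chiMϕ and from 362 to 1335 CPM in CD11cloMϕ. The S100a10 to Anxa2 ratio per kb within a library was 0.624 to 0.964 in KRM Sham and 1.35 to 1.94 in KRM RAS, which did not overlap, while the CD11chiMϕ libraries covered 0.859 to 1.97 and the CD11cloMϕ libraries 0.573 to 1.03. S100a10, but not Anxa2, was among the genes the choice was made on in KRM, so nothing is read from the KRM ratios.

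Anxa1 had 15.5, 14.1, 12.4 and 14.9 CPM in KRM Sham and 41.4, 117 and 99.4 CPM in KRM RAS. The CD11chiMϕ libraries had 253, 187 and 74.9 CPM in Sham and 237, 633, 481 and 486 CPM in RAS, and the CD11cloMϕ libraries 802, 644 and 418 CPM in Sham and 587, 666, 229 and 497 CPM in RAS. All KRM RAS libraries lay above the KRM Sham libraries, and 2 of them, replicates 2 and 3, also lay above the lowest CD11chiMϕ Sham library. For S100a11, the S100 partner of Anxa1, KRM Sham had 57.2, 43.2, 32.7 and 42.1 CPM and KRM RAS 56.1, 299 and 212 CPM. These KRM groups overlapped for S100a11, since RAS replicate 1 lay just under the highest Sham library. In the other populations S100a11 ran from 137.7 to 682 CPM (CD11chiMϕ) and from 263 to 838 CPM (CD11cloMϕ).

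Capg had 10.1, 7.62, 7.63 and 10.8 CPM in KRM Sham and 41.3, 77.0 and 68.5 CPM in KRM RAS, a ratio of means of 6.895. In CD11chiMϕ it was counted at 249.7, 105 and 64.5 CPM in Sham and 259.6, 837, 545 and 526 CPM in RAS. Every CD11chiMϕ RAS library lay above every CD11chiMϕ Sham library, and Capg was the only one of the 10 members of which this held in CD11chiMϕ, beside 4.36% of all genes tested. The gap was small, from 249.7 to 259.6 CPM. CD11cloMϕ had 452, 485 and 393 CPM in Sham and 415, 504, 176 and 359.7 CPM in RAS, with overlapping groups. The order of group means ran from CD11chiMϕ RAS, CD11cloMϕ Sham and CD11cloMϕ RAS to CD11chiMϕ Sham, KRM RAS and KRM Sham, and the first 3 of these overlapped.

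S100a4, a binder of non-muscle myosin, had 8.54, 4.97, 5.24 and 8.05 CPM in KRM Sham and 17.7, 12.2 and 7.87 CPM in KRM RAS, with RAS replicate 3 inside the Sham range. S100a6 had 18.5, 17.4, 13.8 and 16.7 CPM in KRM Sham and 34.0, 67.4 and 45.0 CPM in KRM RAS, without overlap. In CD11chiMϕ S100a4 ran from 47.2 to 229.9 CPM in Sham and from 156.6 to 655 CPM in RAS, and S100a6 from 80.5 to 312 CPM in Sham and from 229.1 to 727 CPM in RAS. In CD11cloMϕ, S100a4 covered 103.9 to 434 CPM and S100a6 covered 193.1 to 643 CPM over the 7 libraries.

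S100a8 and S100a9 had a pattern of their own. S100a8 was counted at 224, 52.3 and 42.6 CPM in CD11cloMϕ Sham and 132, 470.1, 616 and 797 CPM in CD11cloMϕ RAS. S100a9 had 241, 40.5 and 66.8 CPM and 163, 579.6, 694 and 1052 CPM in the same libraries. The RAS libraries numbered 2, 3 and 4 lay above all 3 Sham libraries for both genes, and RAS replicate 1 lay below Sham replicate 1. In CD11chiMϕ S100a8 had 4.30, 21.6 and 9.79 CPM in Sham and 45.2, 39.3, 3.19 and 1.58 CPM in RAS, and S100a9 had 5.30, 25.2 and 15.6 CPM and 54.9, 49.1, 2.13 and 1.70 CPM. The CD11chiMϕ RAS libraries split, with replicates 1 and 2 above the Sham range and replicates 3 and 4 below it. The sum of 10 other neutrophil genes in these libraries was 165.5, 191.8 and 22.1 CPM in Sham and 255.5, 64.2, 13.6 and 10.9 CPM in RAS, so it too was higher in RAS replicates 1 and 2 than in replicates 3 and 4. Between operations the order differed: Sham replicate 1 had a sum of 165.5 CPM with 4.30 CPM of S100a8, and RAS replicate 2 had 64.2 with 39.3. The part of neutrophils in these values was not tested. KRM held at most 2.55 CPM of either gene, from 2 to 26 counts in a library, so no direction is read for either gene between the KRM groups. The S100a8 to S100a9 ratio per kb stayed between 0.479 and 0.972 in the 7 CD11cloMϕ libraries while the levels of S100a9 there covered 40.5 to 1052 CPM.

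The comparison of CD11chiMϕ with CD11cloMϕ in Sham kidneys asks how far the CD11b-high populations differ without stenosis. All 10 members had lower fitted levels in CD11chiMϕ. The log2 differences were -3.08 for S100a8 and -2.83 for S100a9, and between -1.81 (Anxa1) and -1.14 (S100a10) for the other 8. The member median was -1.55 against 0.13 over all 12105 genes tested. None passed an adjusted p of 0.05 in edgeR's quasi-likelihood test (SE 0.375 and adjusted p = 0.0935 for Ahnak, at a log2 difference of -1.68, the lowest p of the 10), where 0.917% of genes were called higher and 0.603% lower, although all 10 had an unadjusted p under 0.05, as did 17.7% of all genes. The replicate numbers of these Sham libraries were treated as pairs in an alternative fit, and with the number as a block edgeR called 2 members lower, Anxa1 (log2 difference -1.89, adjusted p = 0.025) and S100a6 (-1.50, adjusted p = 0.0486), beside 2.16% of genes. DESeq2 called 6 members lower (S100a8, S100a9, S100a11, Ahnak, Anxa1 and Capg) beside 3.54% of genes. Without the Sham libraries numbered 3, which held the tubular transcripts, edgeR called all 10 lower, with adjusted p from 0.00264 (Anxa1) to 0.0495 (S100a9), beside 7.81% of genes lower. That alternative was chosen after the values were seen, and it leaves 2 libraries a group. The neutrophil genes summed to 22.1 to 191.8 CPM in CD11chiMϕ Sham and 885 to 2104 CPM in CD11cloMϕ Sham. Classical monocyte genes summed to 618 to 3172 CPM and 6755 to 17296 CPM, and dendritic cell genes, in the other direction, to 427 to 1914 CPM and 92.4 to 218.9 CPM. Their part in the member differences was not tested.

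In RAS kidneys S100a8 and S100a9 were the only members called between the same populations, and the calls depended on single libraries. S100a8 was lower in CD11chiMϕ than in CD11cloMϕ by a log2 difference of -4.49 (SE 1.05, edgeR adjusted p = 0.0326, 0.000665 to 0.088 over the alternatives), and S100a9 by a log2 difference of -4.52 (SE 1.14, adjusted p = 0.041, 0.00163 to 0.105). The highest CD11chiMϕ RAS library (45.2 CPM of S100a8 and 54.9 of S100a9) lay below the lowest CD11cloMϕ RAS library (132.4 and 162.8 CPM). Over all 12305 genes tested, 3.12% were called lower and 5.15% higher. The 10 other neutrophil genes differed in the same direction, with sums of 10.9 to 255.5 CPM in CD11chiMϕ RAS and 866 to 1868 CPM in CD11cloMϕ RAS. So did 8 classical monocyte genes, with sums of 1120 to 2760 CPM and 3324 to 9567 CPM, and the part of either cell type in these calls was not tested. With CD11chiMϕ RAS replicates 3 and 4 summed as 1 library, neither gene was called (log2 difference -4.12, edgeR adjusted p = 0.0676 for S100a8, and -4.13, adjusted p = 0.0796 for S100a9). Both calls were lost when any of CD11chiMϕ RAS replicates 2, 3 or 4 or CD11cloMϕ RAS replicates 2 or 4 was left out (adjusted p 0.0598 to 0.088 for S100a8 and 0.0712 to 0.105 for S100a9), and S100a9 alone was lost without CD11cloMϕ RAS replicate 3 (adjusted p = 0.0595), with log2 differences of -4.10 or further from 0 throughout.

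No call was made for the other 8 members between CD11chiMϕ and CD11cloMϕ in RAS, where the fitted differences were smaller than in Sham. Their log2 differences ran from -0.64 (Ahnak, approximate 95% interval -1.42 to 0.14) to 0.66 (S100a4, -0.28 to 1.59), with a median of 0.17, and their edgeR adjusted p from 0.353 to 0.998. For S100a11, with group means of 499 ± 189.96 CPM in CD11chiMϕ and 499 ± 183 CPM in CD11cloMϕ (SD, n = 4 each), the interval was -0.75 to 0.74, which leaves smaller differences in either direction undetectable at this spread.

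**Figure D2:**
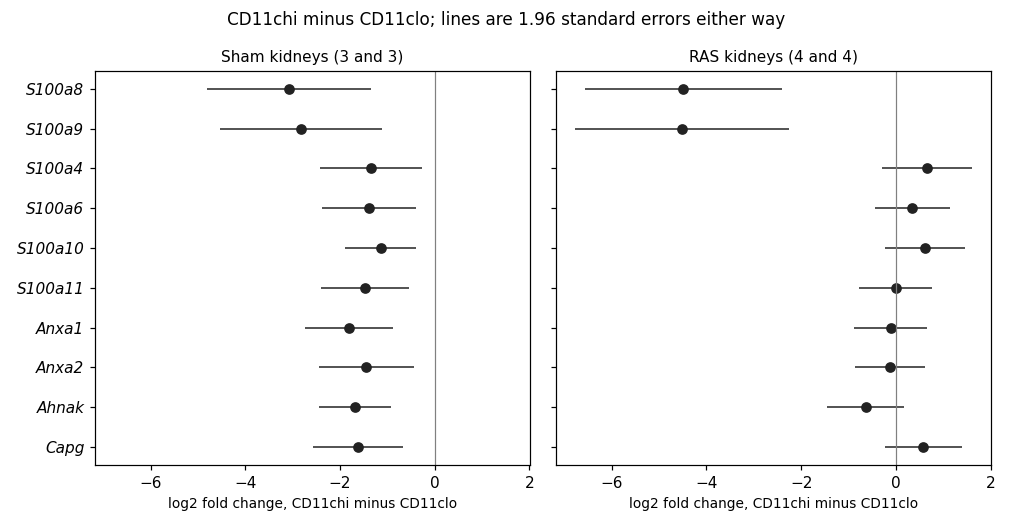
Fitted log2 difference between CD11chiMϕ and CD11cloMϕ for each gene, in Sham and in RAS kidneys, with approximate 95% intervals on the horizontal axis. The intervals are narrower than the edgeR test allows, so an interval without 0 is not a call. All 10 Sham differences lie below 0, from -3.08 to -1.14, while in RAS S100a8 (-4.49) and S100a9 (-4.52) stand apart from the other 8, which lie near 0.

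Within CD11chiMϕ, the effect of RAS was positive in the fit for all 10 members, with a median of 1.08 on the log2 scale against -0.09 over all 12739 genes tested, although S100a9, and S100a8 at a pseudocount of 0.1, were below 0 in the log2 table that was deposited. Capg had the largest value, 1.88 (SE 0.563, edgeR adjusted p = 0.508, 0.0391 to 1 over the alternatives), from 139.8 ± 97.4 CPM (SD, n = 3) in Sham to 542 ± 236 CPM (SD, n = 4) in RAS. Next came Anxa1 at 1.35, S100a4 at 1.33, S100a6 at 1.23, S100a10 at 1.12 and S100a11 at 1.03, and then Anxa2 (0.92), S100a8 (0.86), S100a9 (0.76) and Ahnak (0.67). The edgeR test called 0 members, and 0% of all genes in either direction. At an unadjusted p under 0.05 there were 4 members (S100a6, S100a10, Anxa1 and Capg) and 9.79% of all genes. Leaving out 1 library moved Capg between 1.56 (without CD11chiMϕ Sham replicate 3) and 2.59 (without Sham replicate 1), S100a4 between 0.86 (without RAS replicate 2) and 1.92 (without Sham replicate 1), and S100a8 between 0.24 (without RAS replicate 1) and 1.57 (without Sham replicate 2). Without CD11chiMϕ Sham replicate 3, the library with the tubular transcripts, S100a4 was at 0.95, S100a6 at 0.88, Anxa2 at 0.56 and Ahnak at 0.42, and no member was called. DESeq2 called 1 member higher, Capg (log2 fold change 1.90, adjusted p = 0.0391), beside 1.31% of genes. The sums of other cell types moved with operation in CD11chiMϕ: 8 dendritic cell genes summed to 427 to 1914 CPM in Sham and 1144 to 5514 CPM in RAS, and 8 T and NK cell genes to 5.10 to 29.7 CPM and 98.1 to 231.5 CPM. The 10 fibroblast and pericyte genes summed to 20.8 to 34.8 CPM in Sham and 33.6, 354.8, 97.5 and 154.3 CPM in RAS replicates 1 to 4. This sum was lowest in RAS replicate 1 and highest in RAS replicate 2, which were also the lowest and highest RAS libraries for S100a4, S100a6, S100a10, S100a11, Ahnak, Anxa1 and Capg. None of these 3 lists had a gene at 0 in all libraries of a group. Their part in the member values was not tested.

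Within CD11cloMϕ, S100a8 and S100a9 had the only positive log2 fold changes of the members with RAS, 2.25 (SE 0.757, edgeR adjusted p = 0.553, 0.195 to 0.879 over the alternatives) and 2.42 (SE 0.772, adjusted p = 0.553, 0.151 to 0.879). Neither passed the threshold. The group means were 106 ± 102 and 504 ± 281 CPM for S100a8 and 116 ± 109 and 622 ± 366 CPM for S100a9 (SD, n = 3 Sham and 4 RAS), so the Sham spread, set by replicate 1, was about as large as the Sham mean. The other 8 members had values between -0.64 (S100a4) and -0.29 (Capg), with adjusted p from 0.621 to 0.782. RAS replicate 3 was the lowest CD11cloMϕ library for all 8 of them. Without CD11cloMϕ Sham replicate 3, S100a8 was at 1.88 and S100a9 at 2.16, and the other 8 lay between -0.86 (S100a4) and -0.20 (Ahnak). The edgeR test called 0 members and 0% of all 12301 genes in either direction, and DESeq2 called 0 members and 103 genes over all. At an unadjusted edgeR p under 0.05 there were 2 members and 8.96% of all genes. Sums of other cell types moved with operation here too: T and NK cell genes summed to 0.517 to 5.97 CPM in Sham and 8.83 to 38.5 CPM in RAS, and endothelial genes to 40.5 to 71.3 CPM and 74.4 to 340.0 CPM. Fibroblast and pericyte genes summed to 28.0 to 83.5 CPM in Sham and 10.2, 452.8, 154.9 and 182.2 CPM in RAS replicates 1 to 4. The macrophage markers summed to 6813 to 7195 CPM in Sham and 7802 to 12395 CPM in RAS. RAS replicate 3 had the highest macrophage sum and the lowest classical monocyte sum (3324 CPM) of the CD11cloMϕ libraries. Their part in the member values was not tested.

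The RAS effect was compared between CD11chiMϕ and CD11cloMϕ by an interaction term. The 8 members other than S100a8 and S100a9 had differences of 1.09 to 2.24 on the log2 scale, all positive, with a median of 1.76. The largest belonged to Capg, 2.24 (SE 0.675, edgeR adjusted p = 0.735), followed by S100a4 at 2.04 and S100a10 at 1.82. S100a8 and S100a9 had values of the opposite sign, -1.35 and -1.62. Without the Sham libraries numbered 3 the 8 members had differences of 0.68 (Ahnak) to 1.98 (Capg), and S100a8 and S100a9 stood at -1.08 and -1.32. With edgeR 0 members and 0% of all 13540 genes were called in either direction, an unadjusted p under 0.05 was found for 6 members and for 6.65% of genes, and DESeq2 called 0 members and 15 genes over all. A difference in RAS response between these populations was therefore not shown for any member.

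**Figure D3:**
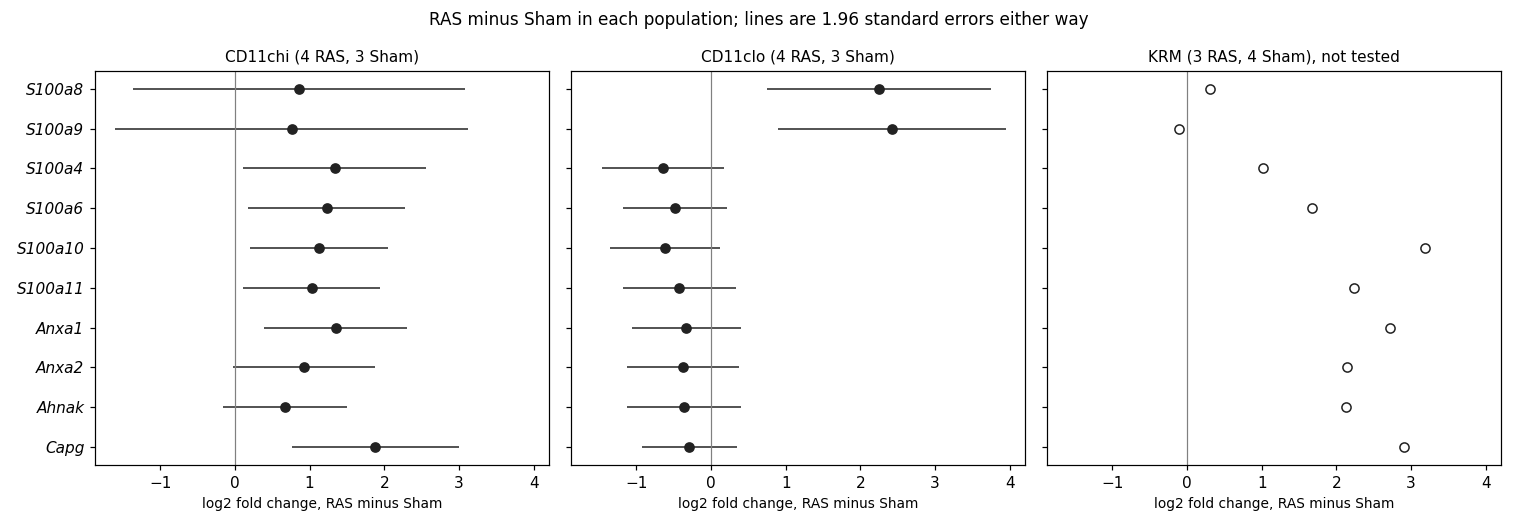
Fitted log2 fold change of RAS over Sham for each gene in CD11chiMϕ, CD11cloMϕ and KRM, with approximate 95% intervals for the tested populations. The KRM points carry no interval, since the genes were chosen on these libraries. The CD11chiMϕ points lie above 0, those of CD11cloMϕ below 0 except S100a8 and S100a9, and the KRM points reach 3.19 for S100a10.

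The KRM response was the basis of the choice and is described only. Fitted log2 fold changes of RAS over Sham were 3.19 for S100a10, 2.90 for Capg, 2.71 for Anxa1, 2.23 for S100a11, 2.14 for Anxa2, 2.12 for Ahnak, 1.67 for S100a6 and 1.01 for S100a4. The median over all 10 was 2.13 (2.33 without RAS replicate 1, the library whose tables disagree), against 0.02 over 12852 genes. All RAS libraries lay above all Sham libraries for S100a6, S100a10, Ahnak, Anxa1, Anxa2 and Capg, as they did for 10.5% of all genes tested, and since the members were chosen on these libraries nothing is read from that count. Leaving out 1 library at a time kept Ahnak between 2.03 and 2.20, Capg between 2.70 and 3.09 and S100a10 between 2.79 and 3.46. The choice was made on these genes, so nothing is read from these ranges. S100a11 ran from 1.72 to 2.625, Anxa2 from 1.72 to 2.48 and Anxa1 from 2.41 to 3.01. S100a6 ran from 1.34 to 1.84 and S100a4 from 0.67 to 1.24.

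Genes of other cell types were counted at higher levels in part of the KRM RAS libraries. The 12 tubular genes summed to 648, 5505 and 4205 CPM in RAS replicates 1, 2 and 3, against 138.6, 127.0, 1155 and 144.0 CPM in the Sham libraries. For 10 fibroblast and pericyte genes the sums were 46.7, 557 and 617 CPM in RAS against 21.2 to 42.9 CPM in Sham, and for 10 endothelial genes 62.2, 287 and 255 CPM against 50.5 to 72.7 CPM. The 8 T and NK cell genes summed to 307, 40.0 and 36.5 CPM in RAS against 3.24 to 4.57 CPM in Sham. The sum of the 10 macrophage markers was 11204 to 13210 CPM in Sham and 9998, 5657 and 6993 CPM in RAS. None of the tubular, endothelial, fibroblast or T and NK genes was at 0 in all libraries of either KRM group. Replicate 1 thus had the highest T and NK sum of the KRM libraries, and replicates 2 and 3 the highest tubular, fibroblast and endothelial sums. Relative to the KRM Sham mean, Ahnak stood at 3.52, 4.43 and 4.17 times in RAS replicates 1, 2 and 3. Capg stood at 4.58, 8.52 and 7.58 times. Anxa2 stood at 1.63, 6.05 and 4.51 times, and S100a11 at 1.28, 6.83 and 4.84 times. These transcripts were counted although the gate and the dump channel should leave such cells out, and their part in the member values was not tested.

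**Figure D4:**
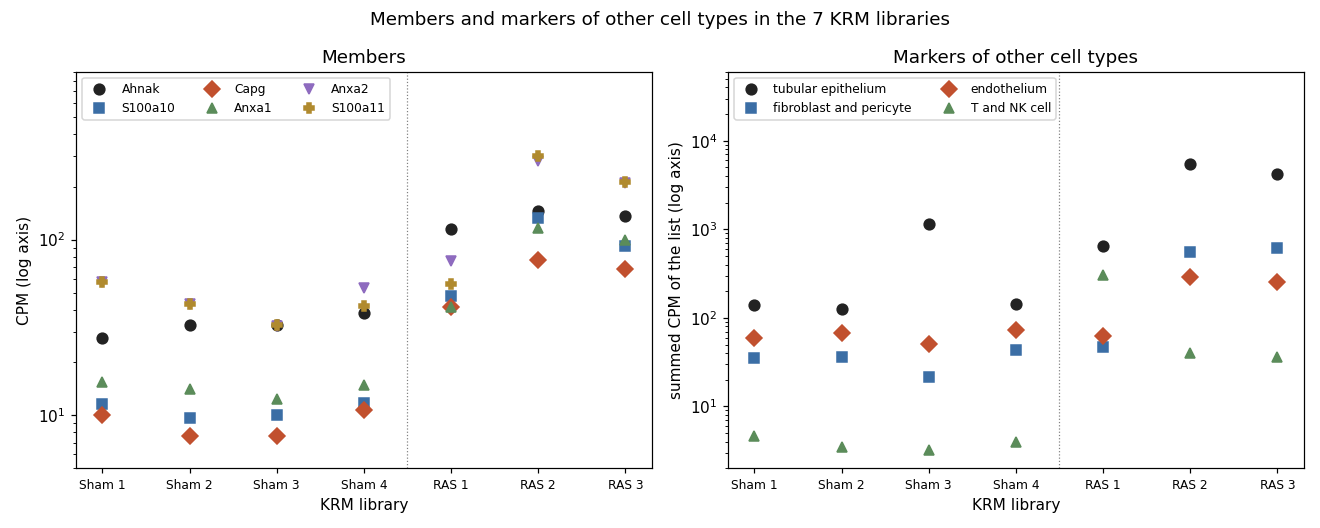
Levels of the members and summed levels of marker genes of other cell types in the 7 KRM libraries, in CPM on log10 axes. Ahnak and Capg lie above their Sham maxima of 38.3 and 10.8 CPM in all 3 RAS libraries, while the T and NK sum peaks in RAS replicate 1 (307 CPM) and the tubular sum in RAS replicate 2 (5505 CPM).

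Against the CD11b-high populations, which share the KRM libraries among these comparisons, KRM Sham had lower fitted levels for all 10 members. The median log2 difference was -3.73 to CD11chiMϕ and -5.56 to CD11cloMϕ. The low KRM Sham level was part of the choice, so these values are a description too. For RAS kidneys the medians were -2.82 and -2.69. S100a10 and S100a11 were nearest between the populations in RAS, with log2 differences of -1.18 and -1.35 to CD11cloMϕ and -1.78 and -1.33 to CD11chiMϕ, and S100a4 was farthest of the members apart from S100a8 and S100a9, at -4.17 and -4.82.

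S100a8 and S100a9 are also neutrophil genes, so 10 other neutrophil genes were counted in the CD11cloMϕ libraries. Their sum was 885 to 2104 CPM in Sham and 866 to 1868 CPM in RAS, so the ranges overlapped. Ly6g, which defines mouse neutrophils, stayed at or below 0.452 CPM in all 7. Single genes had different patterns. Cxcr2, a chemokine receptor of neutrophils, had 22.2, 7.07 and 7.63 CPM in Sham and 18.2, 94.2, 109.9 and 197.2 CPM in RAS, and Csf3r, the G-CSF receptor, had 326, 285 and 208.9 CPM and then 322, 634, 570.4 and 1198 CPM. Both were high in RAS replicates 2, 3 and 4, the libraries in which S100a8 and S100a9 were high. Retnlg, by contrast, had 1128, 1266 and 568.5 CPM in Sham and 1240, 731, 153 and 369 CPM in RAS, and Mmp8 had 607, 270.3 and 87.6 CPM and then 150.4, 194.3, 24.1 and 90.9 CPM. Ltf, lactoferrin, had 4.34, 1.16 and 0.663 CPM in Sham and 34.3, 10.9, 8.25 and 11.6 CPM in RAS, so all RAS libraries lay above Sham. Ngp had 11.7, 0 and 10.3 CPM and then 54.5, 22.4, 0.113 and 0.243 CPM. Both were highest in RAS replicate 1, the RAS library with the least S100a8 and S100a9. Csf3r was also counted in KRM, at 64.2 to 113.9 CPM, where S100a8 did not exceed 2.55 CPM. The sum of 8 classical monocyte genes was 6755 to 17296 CPM in CD11cloMϕ Sham and 3324 to 9567 CPM in RAS. What part other cells had in the S100a8 and S100a9 values was not tested.

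**Figure D5:**
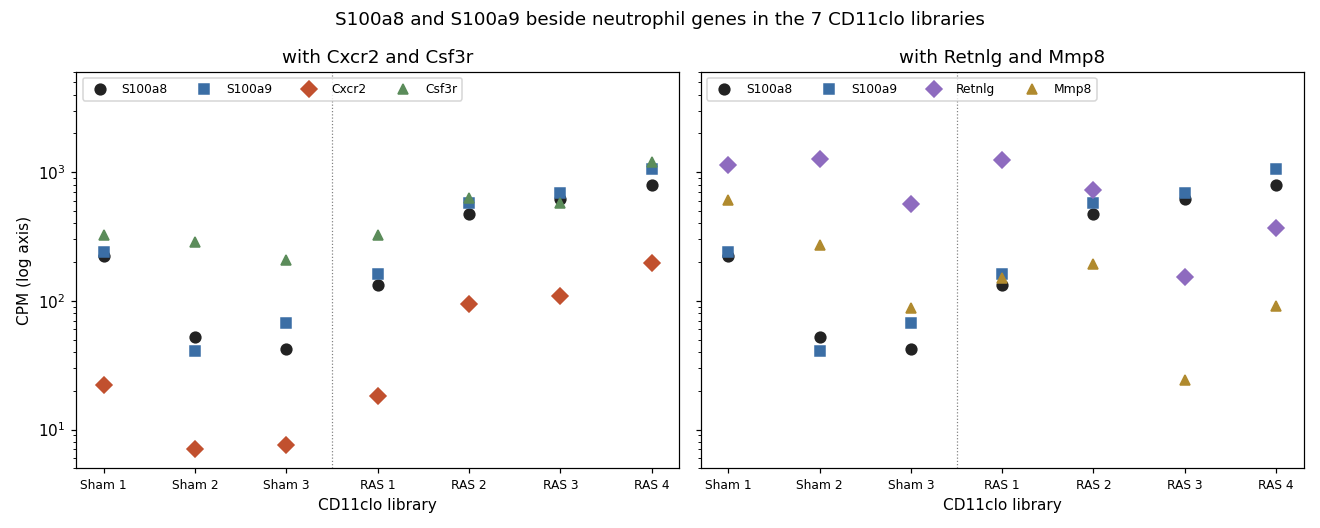
S100a8 and S100a9 beside neutrophil genes in the 7 CD11cloMϕ libraries, in CPM on a log10 axis. Cxcr2 and Csf3r lie above every Sham library in the RAS libraries with 470.1 CPM or more of S100a8. Retnlg and Mmp8 stay below their highest Sham values of 1266 and 607 CPM there.

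Genes related to the members were followed as lists. They held 10 other S100 genes, 10 other annexins, 19 actin capping and severing genes, 12 membrane repair genes and Ahnak partners, 8 plasminogen activation genes and 9 receptors. Only the genes that passed the count filter were tested, 4 of the other S100 genes among them. In RAS against Sham edgeR called none of the tested genes in CD11chiMϕ or CD11cloMϕ, nor in the interaction, where 0 genes were called over all. Between CD11chiMϕ and CD11cloMϕ in Sham, 1 of 17 actin genes tested was lower, Add3, a spectrin and actin linker (131.9 ± 16.3 against 404 ± 36.5 CPM, SD, n = 3 each, log2 difference -1.54, adjusted p = 0.0302), where 0.603% of all genes were called lower. In RAS 1 of 7 other annexins was lower in CD11chiMϕ, Anxa11 (30.4 ± 5.30 against 61.0 ± 18.2 CPM, SD, n = 4 each, log2 difference -1.01, adjusted p = 0.04). Of 18 actin genes, 2 were lower there, Svil (-1.22, adjusted p = 0.043) and Twf1 (-0.82, adjusted p = 0.0296), and of 7 plasminogen activation genes 1, Serpinb2, the plasminogen activator inhibitor PAI-2 (-4.13, adjusted p = 0.00699). These counts stand beside 3.12% of all genes called lower in RAS. The Serpinb2 call held without any 1 of the 8 libraries (adjusted p up to 0.0335). Anxa11 and Svil lost theirs without CD11chiMϕ RAS replicates 2, 3 or 4 or CD11cloMϕ RAS replicates 1, 2 or 4 (up to 0.116 and 0.13), Twf1 without CD11chiMϕ RAS replicates 3 or 4 or CD11cloMϕ RAS replicates 2, 3 or 4 (up to 0.0951), and Add3 in Sham without any library other than CD11chiMϕ Sham replicate 3 (up to 0.214).

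In KRM, RAS against Sham was tested for these other genes with edgeR, although their lists are families of members chosen on the same libraries and were drawn up with earlier results known, so the counts are not independent of that choice. The test called 7.77% of all 12852 genes higher and 1.94% lower. Of the 7 other annexins tested, 3 rose, Anxa4 (161.4 ± 71.7 against 65.3 ± 7.70 CPM, log2 fold change 1.42, adjusted p = 0.0372), Anxa3 (0.99, adjusted p = 0.0443) and Anxa6 (0.78, adjusted p = 0.0204). Plaur, the urokinase receptor, rose from 5.89 ± 1.32 to 38.8 ± 18.8 CPM (log2 fold change 2.84, adjusted p = 0.016) and Plat, tissue plasminogen activator, by 5.33 (adjusted p = 0.0403), which made 2 of 6 plasminogen activation genes. Of 4 other S100 genes, 2 rose, S100a16 (4.23, adjusted p = 0.04) and S100g (6.70, adjusted p = 0.0307), the latter a calcium transport protein of the distal nephron that ran at 172.9 ± 159.9 CPM (SD, n = 3) in RAS. Scin, another capping protein, rose by 7.60 (adjusted p = 0.0305) as the only one of 18 actin genes. Capn1 rose by 0.54 (adjusted p = 0.0462), 1 of 9 membrane repair genes, and Cd36 fell by 0.83 (adjusted p = 0.0479), 1 of 8 receptors. The single calls among actin and membrane repair genes are near the share over all genes. The list medians were 0.78 for other annexins, 0.07 for actin genes, 0.18 for membrane repair and 0.74 for plasminogen activation, against 0.02 over all genes tested. All 10 calls held without KRM RAS replicate 1, in a fit that called 7070 genes over all, against 1247 with every library. All were lost without KRM RAS replicate 2 (28 genes called over all) or 3 or KRM Sham replicates 1, 2 or 4. The edgeR adjusted p was then up to 0.0666 for Plaur, 0.0853 for Anxa6 and 0.101 to 0.187 for the others. The tubular sums given above differ between the same libraries, and their part in these values was not tested.

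Between KRM and CD11cloMϕ in Sham the related genes gave many calls, and those of the genes named here held without any 1 of the 7 libraries. Of 7 other annexins 6 were lower in KRM, led by Anxa6 (90.2 ± 5.75 against 334 ± 47.6 CPM, SD, n = 4 and 3, log2 difference -1.91, edgeR adjusted p = 2.05e-05) and Anxa11 (-1.79, adjusted p = 0.00012), with a list median of -0.73 against -0.04 over all genes. Of 17 actin genes 11 were lower, among them Add3 (-4.35, adjusted p = 3.38e-05), Tmsb10 (-3.02, adjusted p = 6.11e-05) and Svil (-1.72, adjusted p = 0.000271), with a list median of -0.77. Among 9 membrane repair genes 6 were lower and 2 higher. Capn2, a calpain subunit, had 71.8 ± 6.996 CPM in KRM and 369 ± 38.2 CPM in CD11cloMϕ, a log2 difference of -2.39 (adjusted p = 5.51e-06). Plaur stood at 5.89 ± 1.32 against 386 ± 81.2 CPM (-6.06, adjusted p = 1.34e-06), and of the 7 plasminogen activation genes 3 were lower and 1, Plau (2.39, adjusted p = 0.0105), was higher. Receptors went both ways, 3 higher and 2 lower of 7: Tlr4, through which S100a8 and S100a9 signal, was higher in KRM (142.3 ± 20.1 against 44.3 ± 21.2 CPM, 1.65, adjusted p = 0.00387), and Fpr1, a formyl peptide receptor, was lower (-1.45, adjusted p = 0.00338). Over all genes tested in that comparison 22.3% were called lower and 19.5% higher. The KRM Sham libraries entered the choice and the lists are families of the members, so these counts are read as no more than a description. Against CD11chiMϕ in Sham, 0 of 7 other annexins and 0 of 9 membrane repair genes were called. Of 17 actin genes 3 were lower there, and of 7 plasminogen activation genes 3, where 511 of 12404 genes were lower over all. In RAS no other annexin was called between KRM and either population (670 genes lower over all against CD11chiMϕ and 776 against CD11cloMϕ).

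The members were also compared in their pattern over the 21 libraries, by the root mean square difference of centred log2 CPM, where 0 means the same pattern. The closest members were Anxa1 and Capg (0.356) and Anxa1 and Anxa2 (0.362), and the 28 pairs without S100a8 and S100a9 ran up to 1.27. S100a8 and S100a9 differed from each other by 0.427 and from the other members by 2.30 to 3.05. Among 8883 other genes with a mean log2 CPM of at least 3, Ahnak was nearest to Vim (0.507), Rgs18 (0.566) and Tiam1 (0.575). S100a10 was nearest to Vim (0.536), Gramd4 (0.571) and Dusp5 (0.584), and Capg to Dusp5 (0.473), Vim (0.576) and Tiam1 (0.578). Vim, which encodes the intermediate filament vimentin, ran from 51.2 ± 11.2 CPM (SD, n = 4) in KRM Sham and 147.7 ± 52.2 CPM (n = 3) in KRM RAS to 1089 ± 35.1 CPM (n = 3) in CD11cloMϕ Sham. Dusp5, an ERK phosphatase, had 6.48 ± 2.08 CPM in KRM Sham, 74.1 ± 29.8 CPM in KRM RAS and 433 ± 231.3 CPM in CD11chiMϕ RAS.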

How the data were processed

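Cells were sorted into RNA lysis buffer, cDNA was made with a SMART-Seq v4 ultra-low-input kit, and libraries with Nextera XT. The authors aligned the reads to mm10 with OSA, assigned them to Ensembl genes and deposited estimated counts per gene. Their second deposited table holds normalized values on a log2 scale. Estimated counts were rounded, and lines sharing a symbol were summed (37620 lines, 34236 symbols, 3730 lines sharing one). Each member has 1 line. No column was left without a sample. Values are uncorrected for duplicates, and intervals cover the spread between libraries.

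The members, gene lists and alternatives were chosen with earlier results of these data known. Named genes were all members, the 3 called genes with the largest change per related list and comparison, and the 3 genes most like Ahnak, S100a10 and Capg. Marker lists were macrophage, neutrophil, classical monocyte, dendritic cell, B and plasma cell, T and NK cell, tubular, endothelial, and fibroblast and pericyte genes. B and plasma cell genes (6 found of 7) summed to 411 to 516 CPM in KRM Sham and 73.4 to 409 CPM in KRM RAS.

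edgeR 4.0.16 in R 4.3.3 was used with TMM scaling, filterByExpr (minimum count 10, minimum total 15), a prior count of 2 and two-sided quasi-likelihood tests on the groups compared. P-values were adjusted by Benjamini-Hochberg over all genes tested, with a threshold of 0.05. Alternatives were other scalings and filters, 1 fit over all 6 groups, a replicate block, DESeq2 1.42.0, the log2 table in limma 3.58.1 (pseudocount 1 or 0.1, or genes with a mean under 1 left out) and leaving out each library. Leaving out the Sham libraries numbered 3, or the log2 column of KRM RAS replicate 1, and summing CD11chiMϕ RAS replicates 3 and 4 were added after seeing the data. Same-numbered Sham libraries of different populations deviated together (correlation of deviations 0.349 to 0.647 between CD11chiMϕ and CD11cloMϕ, 3 pairs), above the 0.1 set for treating the numbers as pairs. Libraries 1 and 2 correlated across numbers as well (0.457 and 0.482), so mainly replicate 3 stood apart, and the labels name no animal. Replicates differed by more than counting error, the closest pair being CD11chiMϕ RAS replicates 3 and 4. The paper counts fewer RAS libraries of CD11chiMϕ and CD11cloMϕ than the sample labels list, and all labelled libraries were used. The procedure was tested on simulated counts. Positions are from GENCODE vM21. Promoter windows are the 250 bases before each RefSeq start, without the bases after it.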

Additional observations from a re-analysis of the deposited data

Results flagged for a closer look

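Anxa2 in CD11chiMϕ RAS replicate 1 was at 494 CPM, far below the other 3 libraries of its group, of which the nearest had 867 CPM. The gap was 0.916 of the range of the group. The limit used for a gap in groups of 4 is smaller than this one, and about 5% of such groups pass it by chance. The other 3 libraries include replicates 3 and 4, the closest pair of that group.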

How the results depend on the processing

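Of 970 member values under alternatives, 919 kept their direction and side of the threshold, 23 gained a call, 15 lost one and 13 reversed without passing the threshold either way. Of 163 values of whole comparisons, 148 stayed the same. The causes were not tested.

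In CD11chiMϕ RAS against Sham, DESeq2 called 1 member (193 genes against 0). For CD11chiMϕ against CD11cloMϕ in Sham, 0 members (184 genes) became 6 with DESeq2 (1052 genes), 3 with 1 fit over all 6 groups (818), 2 with the replicate block (595) and 10 without the Sham libraries numbered 3 (1897). In RAS, 2 members (1018 genes) became 0 with the replicate block (1253), where the shared number is not shown to pair libraries (lowest correlation 0.0699), and 0 with CD11chiMϕ RAS replicates 3 and 4 summed as 1 library (279). In the other 3 comparisons without KRM the block changed no member call. The KRM median against CD11chiMϕ in RAS was -1.82 in the log2 table, where the column of KRM RAS replicate 1 correlated with its counts by only 0.106, against -2.82.

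Without 1 library, members called were 0 throughout in RAS against Sham of CD11chiMϕ and CD11cloMϕ and in the interaction. Genes called over all were 0 to 39, 0 and 0 there. Between the populations in Sham, 0 to 1 members were called, beside 0 to 704 genes. The 1 was Ahnak, without CD11chiMϕ Sham replicate 3, in the fit with 704 genes. In RAS, 0 to 2 members were called, beside 256 to 2169 genes. The KRM medians ranged from 1.72 to 2.33 for RAS against Sham, from -3.95 to -3.28 and -5.62 to -5.43 against CD11chiMϕ and CD11cloMϕ in Sham, and from -2.96 to -2.50 and -2.98 to -2.48 in RAS.

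Reversed values in CD11chiMϕ RAS against Sham came from the log2 table, S100a8 -0.0149 and S100a9 -0.36 with pseudocount 0.1, and S100a9 -0.31 with pseudocount 1, with or without low genes. Between the populations in RAS, S100a11 was 0.00985 with at least 10 counts in every library. Without 1 library S100a11 ranged from -0.21 to 0.24, Anxa1 from -0.35 to 0.11 and Anxa2 from -0.38 to 0.0824, each lowest without CD11cloMϕ RAS replicate 3 and highest without CD11chiMϕ RAS replicate 1, except Anxa2, highest without CD11cloMϕ RAS replicate 2.

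Genes called over all in the interaction were 0 with edgeR and 15 with DESeq2, and in CD11cloMϕ RAS against Sham 0 and 103. For KRM RAS against Sham the block called 42 genes, and 28 were called without KRM RAS replicate 2 and 7070 without replicate 1, against 1247. Total library size moved the median of all genes in KRM against CD11chiMϕ and CD11cloMϕ in RAS to 0.26 and 0.27, against 0.03 and 0.06.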
